A study of Homo sapiens with 24 samples.

Results

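The reporter fragments described here are those of ATXN3, the gene for ataxin-3, tested in a pooled reporter assay (MPRA) that sets the 2 or more alleles of a 3′ untranslated fragment side by side. The members were all entries of the count table that carry the gene name ATXN3. The gene itself was chosen by the reporter activities and allelic effects measured in these same libraries, so those values are given below as a description and the calls of the fits are not a test of the gene. ATXN3 contributed 36 variants of 30 SNPs, which are 66 distinct oligos (30 reference and 36 alternative) of 24780 in the table. Of these SNPs, 24 had 1 alternative allele and 6 had 2, whose alternative alleles share the counts of the reference oligo. The oligos of rs112733683 and rs1134378 had no count in any library, which left 34 variants of 28 SNPs on 62 oligos, and all 62 passed the filter on low plasmid counts in both lines.

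The cells were SH-SY5Y, an established line of neuroblastoma origin, and microglia that SV40 had immortalised. Neither line carries a genotype or drug contrast in the labels, and both were transfected with the plasmid pool by a lipid reagent. Plasmid DNA and polyadenylated RNA made up 6 libraries each per line, the RNA from independent transfections, giving 4 groups of 6 libraries (24 in all). The labels do not say whether DNA and RNA libraries of the same number came from the same transfection. Each line is a single cell line, and the counts come from reporter transcripts alone, so the identity of the cells could not be checked against marker genes.

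Ataxin-3 is a deubiquitinase that trims ubiquitin chains on proteins bound for the proteasome. Expansion of a CAG repeat in its coding sequence causes Machado-Joseph disease, also named spinocerebellar ataxia type 3. In general a 3′ untranslated region sets how long a message lasts and how well it is translated, through the microRNAs and RNA-binding proteins it attracts. The counts used here are of reporter RNA and plasmid DNA, so they describe the amount of reporter message and not its translation. ATXN3 lies on chromosome 14 from 92044775 to 92106582 in GRCh38.p14. The position of each SNP and the fragment sequences are not used here, so whether fragments of neighbouring SNPs overlap was not examined.

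Library totals ran from 16556722 to 19101103 in SH-SY5Y DNA, 11764547 to 18100832 in SH-SY5Y RNA, 12154918 to 17570853 in microglia DNA and 7018516 to 10437069 in microglia RNA. Same-numbered RNA libraries of the 2 lines deviated from their group means together to a small degree (correlation over oligos 0.0481 to 0.0978, other number pairs -0.0323 to 0.0108). So did their DNA libraries (0.0304 to 0.0731, other number pairs -0.034 to 0.00721). The part of this in the results below was not tested. Levels are given as CPM, an oligo's count scaled to the library's total. Activity is the log2 ratio of RNA to plasmid DNA relative to the pool, after TMM scaling. A value of 0 is a typical oligo. A ± is the standard deviation over the 6 RNA replicates, each set against the mean of the DNA libraries. The value before a ± is the edgeR coefficient and not the mean of the replicate values, so they can lie apart at low counts. Activity describes the reporter, and not the amount of ATXN3 message in either line.

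ATXN3 oligos covered a wide range of plasmid abundance. Their mean count per DNA library ran from 32.3 to 2358 in SH-SY5Y (median 465) and from 33.0 to 2036 in microglia (median 387), against medians of 588 and 510 over all oligos with a count. The C reference of rs55921125 was the most abundant, and the T alternative of rs8022758 was the rarest. Fewer than 100 DNA counts per library stood behind 10 oligos in SH-SY5Y and 9 in microglia. These rare oligos were also the noisy ones. In SH-SY5Y the median replicate SD of activity was 1.62 among them and 0.52 among the others, and in microglia it was 0.57 and 0.25. The alternative allele made up between 16.2% (rs8022758 G>T) and 85.1% (rs8019545 G>A) of a variant's plasmid counts in SH-SY5Y, and between 17.8% (rs8022758 G>T) and 78.6% (rs1055996 T>C) in microglia.

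Several patterns of activity stood out among the ATXN3 fragments. The rs1134377 fragment was high in both lines. Both of its alleles were more active in SH-SY5Y, a difference between lines that passed for the A oligo only. The rs112586446 fragment was high in both lines on few counts. The rs11621770 and rs34351382 fragments were nearly lost from SH-SY5Y RNA while microglia RNA held far more of them, and the rs75002598 and rs12433948 fragments were low in both lines.

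The A reference oligo of rs1134377 was at 48.0 to 56.3 CPM in the SH-SY5Y DNA libraries (median 51.9) and at 102 to 128 CPM in the RNA libraries (median 119). All 6 RNA libraries lay above all 6 DNA libraries. Its activity was log2 1.23 ± 0.12 (n = 6), or 2.34-fold, higher than 99.8% of all oligos and the smallest replicate spread of any ATXN3 oligo in that line. The G alternative oligo was at 50.9 to 60.4 CPM in DNA (median 55.3) and at 58.7 to 146 CPM in RNA (median 114). Its RNA libraries overlapped the DNA range at the lower end, and its activity was log2 1.07 ± 0.47. In microglia the same fragment was also higher. The A oligo went from a median of 58.4 CPM in DNA (52.3 to 70.1) to 71.5 CPM in RNA (66.4 to 88.3), an activity of 0.32 ± 0.15, and the G oligo from 60.9 (48.0 to 78.2) to 83.8 (68.7 to 90.8), an activity of 0.40 ± 0.14. The groups overlapped for both alleles, although each of the 6 RNA replicates lay above the DNA mean. In microglia the A oligo no longer passed without replicate 2 or 3, and its value was 0.30 to 0.33 in the 6 fits that each left out a replicate.

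The rs112586446 fragment had the highest activity of all ATXN3 fragments in both lines, and few plasmids. Its A alternative oligo was at 5.98 to 7.96 CPM in SH-SY5Y DNA (median 7.13) and at 9.84 to 37.6 CPM in RNA (median 13.8), with no overlap. The activity was log2 1.44 ± 0.80 in SH-SY5Y and 0.93 ± 0.52 in microglia, where DNA held 4.44 to 8.53 CPM (median 6.25) and RNA 7.35 to 20.8 CPM (median 11.3), which overlap. The G reference oligo had a mean of only 52.3 DNA counts in SH-SY5Y and 47.3 in microglia, with 2 counts in the lowest microglia DNA library. It reached 1.33 ± 0.67 and 1.096 ± 0.66, above 99.9% of all oligos in each line, but did not pass the threshold in either. Its replicate values in microglia ran from 0.87 to 2.51. The call of the A oligo depended on single replicates. In SH-SY5Y it failed without replicate 1 or 6 (1.05 to 1.59) and in microglia without replicate 3 (0.70 to 1.03). The G oligo gained a call in microglia without replicate 2 (0.89 to 1.47). Ranges given with a lost or gained call, here and below, are over the 6 fits that each left out a replicate.

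Both alleles of rs11621770 were present as plasmids in SH-SY5Y and nearly absent from its RNA. The T reference oligo was at 3.45 to 4.41 CPM in DNA (median 4.22) and at 0 to 0.795 CPM in RNA (median 0.24), on 24 RNA counts over the 6 libraries. Its activity was log2 -3.79 ± 1.59, a 13.9-fold lower level. The A alternative oligo was at 3.72 to 4.93 CPM in DNA (median 4.40) and at 0.17 to 1.26 CPM in RNA (median 0.369), on 42 RNA counts, with an activity of -3.12 ± 0.94. For both alleles every SH-SY5Y RNA library lay below every DNA library. In microglia the T oligo was at a median of 5.00 CPM in DNA (4.28 to 9.30) and 5.04 CPM in RNA (2.71 to 5.80), and the A oligo at 6.86 (5.24 to 11.5) and 6.55 (3.87 to 7.83). There the groups overlapped, and the activities were -0.25 ± 0.39 and -0.34 ± 0.35, neither of them past the threshold.

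The rs34351382 fragment behaved alike in SH-SY5Y. Its T reference oligo was at 2.24 to 3.04 CPM in DNA (median 2.66) and at 0.0662 to 0.315 CPM in RNA (median 0.153), on 15 RNA counts in all, for an activity of log2 -3.83 ± 0.84 (14.2-fold lower). The A alternative oligo was at 3.75 to 6.40 CPM in DNA (median 4.23) and at 0.332 to 1.32 CPM in RNA (median 0.501), on 57 RNA counts, for an activity of -2.70 ± 0.79. RNA and DNA did not overlap for either allele. In microglia the T oligo was at 2.79 to 4.28 CPM in DNA (median 3.69) and 1.57 to 4.95 CPM in RNA (median 3.36), an activity of -0.13 ± 0.57. The A oligo was lower there, at 7.17 to 11.4 CPM in DNA (median 9.43) and 3.56 to 7.31 CPM in RNA (median 5.47), an activity of -0.78 ± 0.40, with a narrow overlap. It failed in 5 of the 6 fits that left out a replicate, all but that without replicate 1 (-0.91 to -0.68). The 4 oligos of rs11621770 and rs34351382 lay within the lowest 0.514% of all oligos in SH-SY5Y. They are among the rare oligos of the pool, with 47.7 to 81.3 mean DNA counts in SH-SY5Y. Both SNPs are T>A changes, as is rs8008405 T>A, whose T and A oligos were at -0.30 and 0.33 in that line.

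The rs75002598 fragment was lower in both lines at high counts. In SH-SY5Y its G reference oligo fell from a median of 59.6 CPM in DNA (54.6 to 63.6) to 34.6 CPM in RNA (24.8 to 43.8), and its A alternative oligo from 57.9 (55.7 to 64.9) to 28.7 (21.3 to 40.5). The activities were log2 -0.75 ± 0.29 and -0.96 ± 0.35. In microglia the G oligo fell from 58.3 CPM (53.0 to 75.0) to 35.7 CPM (26.4 to 41.7) and the A oligo from 61.9 (54.4 to 70.4) to 27.2 (25.9 to 37.7), with activities of -0.83 ± 0.27 and -1.04 ± 0.25. RNA and DNA did not overlap for either allele in either line, and the mean DNA count per library was 930 to 1068.

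The rs12433948 fragment was the lowest in microglia. Its G reference oligo went from a median of 19.3 CPM in DNA (14.5 to 27.5) to 6.89 CPM in RNA (4.01 to 8.91) and its A alternative oligo from 52.1 (38.4 to 63.0) to 20.3 (11.4 to 22.4), with no overlap. The activities were log2 -1.57 ± 0.40 and -1.46 ± 0.37. In SH-SY5Y the A oligo went from 33.2 CPM (30.9 to 36.0) to 10.8 CPM (4.63 to 28.2), an activity of -1.35 ± 0.85 with no overlap, and it failed without replicate 2 (-1.78 to -1.19 in the 6 fits). The G oligo went from 9.39 (7.38 to 10.1) to 4.01 (2.54 to 11.7), an activity of -0.79 ± 0.79 that did not pass, with 1 RNA library above the DNA range.

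Counted over the edgeR fits, 11 of the 62 ATXN3 oligos passed an adjusted p of 0.05 for activity in SH-SY5Y (17.7%), 3 higher and 8 lower, where 9.06% of all 24146 oligos tested passed. In microglia 15 passed (24.2%), 7 higher and 8 lower, where 21.1% of all oligos passed. Because the gene was chosen with these activities known, both shares are a description and not a test. The calls fell on 19 oligos of 12 SNPs. Both lines shared 7 oligos, all with the same sign, which are 63.6% of the SH-SY5Y calls and 46.7% of the microglia calls. The overlap and its signs were not counted over all oligos, so they cannot be set against the pool. Of all SH-SY5Y calls in the pool 47.1% were higher, and 32.3% when libraries were scaled by total counts. The ATXN3 calls stayed at 3 higher and 8 lower in that setting. The median activity of the ATXN3 oligos was log2 -0.14 in SH-SY5Y and -0.04 in microglia, beside 0.05 and 0.02 over all oligos.

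The remaining calls fell on 6 SNPs. In microglia the 3 alleles of rs8009456 were at 0.10 ± 0.32 for the A reference, 0.61 ± 0.27 for the C alternative and -0.74 ± 0.24 for the G alternative. Neither alternative passed against the reference in the allelic fit of that line. The C oligo was at 5.68 to 19.0 CPM in DNA (median 11.9) and 14.5 to 23.0 CPM in RNA (median 17.6), which overlap, and its call was lost without replicate 1, 3 or 6 (0.40 to 0.71). The G oligo was at 21.3 to 34.9 CPM in DNA (median 32.3) and 13.2 to 21.1 CPM in RNA (median 19.1), with no overlap. In SH-SY5Y the same alleles were at 0.39 ± 0.60, -0.19 ± 0.76 and -0.47 ± 0.54, and none passed. For rs9652396 the A reference passed as lower in microglia (-0.63 ± 0.34, lost without replicate 3, -0.79 to -0.48), beside -0.06 ± 0.30 for the G alternative. Its alleles did not differ past the threshold in the allelic fit of either line. In SH-SY5Y the G alternative passed (-0.47 ± 0.16) and lost the call without replicate 1, 3, 4, 5 or 6 (-0.49 to -0.43), beside -0.38 ± 0.62 for the A reference.

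Of the other microglia calls, the G reference of rs709930 was lower (log2 -0.46 ± 0.19), beside -0.28 ± 0.26 for its A and -0.08 ± 0.35 for its T alternative. The G alternative of rs11628764 was higher (0.46 ± 0.14), a call lost without replicate 1, 2 or 4 (0.35 to 0.59). The A alternative of rs141847020 was higher (0.32 ± 0.14), and so was the C reference of rs55644237 (0.32 ± 0.18), which lost its call without replicate 2 or 5 (0.26 to 0.41). The second allele of each of these SNPs did not pass and lay on the same side, at 0.32 ± 0.22 for rs11628764, 0.19 ± 0.12 for rs141847020 and 0.13 ± 0.13 for rs55644237.

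The 16 SNPs without a call in the main edgeR fits included some with large but scattered values. All 3 alleles of rs910369 were below 0 in SH-SY5Y, at log2 -2.09 ± 1.88 for the G reference, -1.22 ± 1.74 for the A alternative and -0.69 ± 1.49 for the T alternative. The G oligo was at 3.57 to 4.71 CPM in DNA (median 4.12) and 0.0787 to 3.10 CPM in RNA (median 0.238), with no overlap, on 87 RNA counts. In microglia its alleles were at -0.80 ± 0.70, 0.51 ± 0.72 and 0.24 ± 0.29. The G reference of rs8022758 was at -1.31 ± 1.85 in SH-SY5Y and -0.26 ± 0.17 in microglia, and the G reference of rs8019545 at 1.20 ± 1.66 and -0.09 ± 0.56, with spreads as large as the values in SH-SY5Y. The A reference of rs55966267 was at 0.71 ± 0.50 in SH-SY5Y and 0.07 ± 0.33 in microglia. This oligo and the G reference of rs910369 passed in SH-SY5Y with DESeq2, and with edgeR when replicate 5 was left out.

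The other SNPs without a call mostly lay close to the typical oligo. Among them the lowest activity in SH-SY5Y was that of the G reference of rs10151945 (log2 -0.86 ± 1.54) and the highest that of the A alternative of rs10151135 (0.48 ± 0.62). In microglia the lowest was the T reference of rs67089639 (-0.68 ± 0.59, and -0.68 ± 0.60 in SH-SY5Y) and the highest the C alternative of rs1055996 (0.34 ± 0.21). The T reference of rs1055996 was at -0.67 ± 0.51 in microglia on a mean of 83.2 DNA counts. The most abundant oligo, the C reference of rs55921125, was at 0.26 ± 0.31 in SH-SY5Y and 0.01 ± 0.11 in microglia, the smallest spread of any ATXN3 oligo in that line. The 3 alleles of rs8008405 were at -0.30 ± 1.01 (T reference), 0.33 ± 0.38 (A) and -0.29 ± 0.33 (C) in SH-SY5Y, and at -0.13 ± 0.25, 0.14 ± 0.15 and -0.45 ± 0.67 in microglia. Both lines had the A allele above 0 and the other alleles below it, within the spread between replicates for most of them. Both alleles of rs1047795, rs74244591 and rs78681557 lay between log2 -0.25 and 0.12 in both lines.

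The 2 alleles of a fragment differ by a base and mostly moved together. Over the 34 variants, reference and alternative activity correlated with Pearson's r = 0.856 (Spearman's rho = 0.629) in SH-SY5Y and 0.602 (0.492) in microglia. Without rs11621770 and rs34351382 the Pearson values were 0.667 and 0.632 over 32 variants. These correlations describe fragments that share libraries and, at 6 SNPs, a reference oligo. Between lines, activity over the 62 oligos correlated with r = 0.474 (rho = 0.578), and with r = 0.61 over the 58 oligos outside those 2 SNPs. The sign was the same in both lines for 44 of the 62. Neither these correlations nor the sign count were computed over all oligos, so they cannot be set against the pool.

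The difference in activity between the lines is given as microglia minus SH-SY5Y. It passed for 4 of the 62 ATXN3 oligos (6.45%), where 0.921% of all 24099 oligos tested passed. ATXN3 was chosen with these activities known, so this share is a description and not a test. The T and A oligos of rs11621770 are alleles of 1 fragment. With the T oligo of rs34351382 they had few plasmids in SH-SY5Y (means of 73.8, 78.0 and 47.7 DNA counts). The A reference of rs1134377 was more active in SH-SY5Y by log2 -0.93 (1.91-fold). The T oligos of rs34351382 and rs11621770 were more active in microglia by log2 3.67 (12.7-fold) and 3.52 (11.5-fold), and the A oligo of rs11621770 by 2.75 (6.74-fold). The second allele of the other 2 fragments differed in the same direction and did not pass, at -0.69 for the G oligo of rs1134377 and 1.89 for the A oligo of rs34351382. The number of oligos that passed was 2 without replicate 1. The T oligo of rs11621770 failed without replicate 1 or 4 (3.20 to 4.42 in the 6 fits) and the A oligo without replicate 1, 3, 5 or 6 (2.52 to 3.33), while rs1134377 (-0.98 to -0.91) and rs34351382 (3.50 to 3.84) kept theirs with a replicate left out. In the pool as a whole 39 oligos were higher and 183 lower in microglia. Of all calls 17.6% were higher, and 38.1% when libraries were scaled by total counts, with the same split of 3 higher and 1 lower for ATXN3.

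The allelic effect compares the RNA of the alternative with that of the reference oligo after both are set against their plasmids, in log2, so a positive value is a higher alternative allele. None of the 34 ATXN3 variants passed in the edgeR fit of SH-SY5Y, where 0.399% of 13031 variants did, or in that of microglia, where 1.74% of 13017 did. At an unadjusted p under 0.05 there were 3 in SH-SY5Y (8.82%, beside 8.73% of all variants) and 3 in microglia (8.82%, beside 9.38%). DESeq2 called 1 ATXN3 variant in SH-SY5Y, rs55966267 A>G, beside 350 of all 13031 variants. In microglia it called none, beside 352 of all 13017. With limma on log2 ratios none was called in either line, beside 31 of all variants in SH-SY5Y and 127 in microglia. The alternative allele was higher for 19 variants and lower for 15 in SH-SY5Y, and higher for 22 and lower for 12 in microglia. The size was under log2 0.5 for 21 variants in SH-SY5Y and for 26 in microglia. The replicate SD had a median of 0.85 in SH-SY5Y and 0.40 in microglia.

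Among the largest allelic values in SH-SY5Y, the G allele of rs55966267 A>G made up 53.8% to 67.2% of the plasmid counts (median 59.8%) and 23.5% to 58.6% of the RNA counts (median 38.1%). The effect was log2 -1.21 ± 0.84, lower in 6 of 6 replicates, while in microglia it was 0.21 ± 0.39. The T allele of rs910369 G>T made up 57.7% to 68.0% in DNA (median 61.3%) and 45.2% to 97.4% in RNA (median 88.0%), an effect of 2.00 ± 1.99. Its A allele was at 1.28 ± 2.41, with spread beyond the value, and at 0.48 without replicate 2 and 2.06 without replicate 1. In microglia both alleles of rs910369 were higher than the shared G reference in 6 of 6 replicates, by 1.00 ± 0.70 (T) and 1.28 ± 1.23 (A). Further large values in SH-SY5Y were 1.26 ± 2.07 for rs8022758 G>A, -0.87 ± 0.91 for rs8009456 A>G and -0.73 ± 2.11 for rs8019545 G>A. With a replicate left out they ranged from 0.70 (without replicate 3) to 1.87 (without replicate 6), from -1.20 (without replicate 1) to -0.58 (without replicate 5) and from -1.33 (without replicate 3) to -0.14 (without replicate 6).

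In microglia the lowest value was that of rs8009456 A>G, whose G allele made up 51.2% to 71.5% of the plasmid counts (median 63.4%) and 33.6% to 59.5% of the RNA counts (median 50.4%). The effect was log2 -0.82 ± 0.54, lower in 6 of 6 replicates. The C allele of the same SNP went the other way, at 0.58 ± 0.35 and higher in 6 of 6 replicates. The C allele of rs1055996 T>C made up 71.9% to 88.0% of the plasmid counts (median 77.0%) and 81.7% to 93.7% of the RNA counts (median 87.7%), an effect of 1.01 ± 0.61, beside -0.14 ± 1.82 in SH-SY5Y. DNA and RNA shares overlapped in each of these cases. The G allele of rs9652396 A>G was at 0.59 ± 0.58 in microglia and 0.01 ± 0.56 in SH-SY5Y, and other low values in microglia were -0.62 ± 0.60 for rs34351382 T>A and -0.53 ± 2.58 for rs8022758 G>T, the last of them -1.01 without replicate 2 and -0.16 without replicate 3. In all, 2 variants in SH-SY5Y and 8 in microglia had the same sign in every RNA replicate, each set against the mean of the DNA libraries. Such counts leave out the spread between DNA libraries, and none of these variants passed in the edgeR fits. The share of all variants with 1 sign throughout was not counted.

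The fragments with the clearest activity had no allelic call. At rs1134377 A>G the effect was log2 -0.21 ± 0.51 in SH-SY5Y and 0.09 ± 0.20 in microglia, at rs75002598 G>A it was -0.22 ± 0.52 and -0.22 ± 0.40, and at rs12433948 G>A it was -0.61 ± 1.33 and 0.11 ± 0.31. At rs11621770 T>A it was 0.82 ± 1.71 in SH-SY5Y and -0.06 ± 0.64 in microglia. At rs34351382 T>A it was 1.09 ± 1.16 in SH-SY5Y. The difference in allelic effect between lines passed for 0 of 34 ATXN3 variants with edgeR, DESeq2 or limma, where 0.0462% of 12989 variants passed with edgeR, and 2 (5.88%, beside 5.67% of all variants) had an unadjusted p under 0.05, a share close to the background. These were rs55966267 A>G (1.41, microglia minus SH-SY5Y) and rs8009456 A>C (1.23). Over the 34 variants the allelic effects of the lines correlated with r = 0.253 (rho = 0.0851), and 15 had the same sign. The same was not computed over all variants.

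Related genes were thinly covered. Of 8 polyglutamine disease genes the table held only ATXN2, a gene of stress granules and RNA metabolism, with 1 variant on 2 oligos. Neither oligo was called in a line or between lines (activity -0.25 to -0.15 in SH-SY5Y and 0.16 to 0.49 in microglia). Of 20 symbols for ataxin-3 partners and relatives it held NPLOC4 and VCP, which act with ataxin-3 on ubiquitinated proteins, and SQSTM1, an autophagy receptor, with 23 oligos tested. None was called in SH-SY5Y, beside 9.06% of all oligos, and 2 (8.7%) in microglia, beside 21.1%. Both were of SQSTM1, the A reference of rs36086003 (0.32) and the A reference of rs10516140 (-0.28). The median activities of that list were 0.06 and 0.07, and none of its 12 variants had an allelic call. None of 10 genes near ATXN3 on chromosome 14 was in the table. By median reference activity in both lines, the genes nearest to ATXN3 (-0.08 and -0.11 over 28 reference oligos) among 752 others with at least 5 such oligos were SEPT3 (-0.08 and -0.10), BORCS7-ASMT (-0.09 and -0.10) and PTGIS (-0.08 and -0.09), at log2 distances of 0.00879, 0.0125 and 0.0262.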

How the data were processed

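The data were raw counts per variant and allele in each library, as deposited by the authors with no scaling. Per the submitters' processing notes reads were handled with SAMtools 1.10, Bowtie2, UMI-tools 1.0.0 and cutadapt 2.7 on build hg38. RNA carried a molecular identifier, per the labels' protocols. Whether DNA counts were collapsed by identifier, and the strand of the alleles, are not given in the sources used here. A sequencing error at the variant base would move a count between alleles.

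The 6 comparisons were fitted over the whole table with R 4.3.3 and the quasi-likelihood test of edgeR 4.0.16. Benjamini-Hochberg adjustment ran over all features tested, at a threshold of 0.05. Allelic fits entered both alleles of a library, blocked by library. Activity fits used all distinct oligos with TMM. Features with a mean under 10 DNA counts in a line used were left out. Replicate values used a pseudocount of 0.5. Alternatives were DESeq2 1.42.0, limma 3.58.1 (allelic), other scalings (activity), no filter, at least 50 DNA counts, a replicate block and leaving out each replicate. The code was tested on simulated data. No 2 replicates agreed within counting noise (chi-square per degree of freedom at least 4.23), and 0 columns were left out.

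Described one by one were the members past the threshold in any fit and the 3 highest and 3 lowest per line. The members and gene lists were chosen with earlier results of these data known.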

Additional observations from a re-analysis of the deposited data

Results flagged for a closer look

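In 40 sets of 6 replicate values checked, 3 held a replicate far from the others, where chance gives about 2. All were activities in microglia. For the A oligo of rs12433948 the lowest replicate, number 2, was at log2 -2.18, with the others from -1.53 to -1.19. For the G oligo of rs8009456 the lowest, number 5, was at -1.21, with the others from -0.71 to -0.54. For the A oligo of rs9652396 the highest, number 6, was at 0.037, with the others from -0.89 to -0.59.

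The activity of 4 ATXN3 oligos differed between the lines by the interaction term (microglia minus SH-SY5Y): -0.93 for the A oligo of rs1134377, 2.75 and 3.52 for the A and T oligos of rs11621770, and 3.67 for the T oligo of rs34351382.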

How the results depend on the processing

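Of 30 calls on single ATXN3 oligos, 17 held under all alternatives that tested them, and none changed direction. Of the values described but not called, 14 were followed in the same way. None of these changed direction, and 3 passed in an alternative. Others outside the 14 also passed in an alternative. With DESeq2 these included the G reference of rs910369 and the A reference of rs55966267 in SH-SY5Y. In microglia they included the T reference of rs67089639 and the G reference of rs141847020. The count of allelic calls in SH-SY5Y was 1 with DESeq2 in place of 0. The count of oligos whose activity differed between lines was 2 to 4 with a replicate left out and 2 with the replicate number as a block, in place of 4. The labels do not tie same-numbered DNA and RNA libraries to 1 transfection, and the libraries correlated weakly (0.0232 to 0.0688 in SH-SY5Y, 0.0209 to 0.0563 in microglia), although all 6 correlated best with their own number. DNA libraries of the 2 lines, which are from different cells, also correlated best with their own number (0.0304 to 0.0731). What links the numbers was not tested. With the replicate block edgeR made 9 activity calls on ATXN3 oligos in SH-SY5Y, beside 1886 of all 24146 oligos. In microglia it made 15, beside 5197 of all 24136. It lost the A oligo of rs112586446 and the G oligo of rs9652396 in SH-SY5Y. In microglia it lost the A oligo of rs34351382, and the T oligo of rs10151135 was new. Between lines it lost the A oligo of rs11621770 and the T oligo of rs34351382. The other counts of ATXN3 calls stayed within 1.5 times. Over the whole pool, DESeq2 called 350 allelic effects in SH-SY5Y (edgeR 52), 352 in microglia (226), 29 between lines (6), 3650 activities in SH-SY5Y (2187) and 561 differences in activity (222). limma called 31 allelic effects in SH-SY5Y and 127 in microglia. Total counts gave 147 differences in activity, and the replicate block 133 and 3 differences in activity and allelic effect. Leaving out a replicate gave 30 to 45 and 167 to 192 allelic effects, 2 to 8 between lines, and 124 to 200 differences in activity. Oligos under 100 mean DNA counts numbered 10 in SH-SY5Y and 9 in microglia, and their values had the wider spread.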
